A study of Mus musculus with 10 samples.

Results

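The genes described here carry glucose into the heart muscle cell, break it down to pyruvate and lactate, and store it as glycogen. They are 31 named genes, chosen by symbol for these roles, with earlier results of these data known. All 31 were found among the 57185 genes with counts. Left ventricular RNA, taken from the apical portion, was sequenced as one library per mouse from 5 MLPKO and 5 cRADΔ/Δ-MLPKO male mice. In MLPKO mice Csrp3, which encodes muscle LIM protein (MLP), is knocked out, and they serve as a model of dilated cardiomyopathy. Mice of both groups carried the MLP knockout and a floxed RAD gene (Rrad, an inhibitor of the cardiac L-type calcium channel). All received a single tamoxifen dose of 100 mg per kg at 10 weeks of age. The labels give an age of 16 weeks, whereas the paper places these hearts 1 month after tamoxifen, so the exact interval is uncertain. cRADΔ/Δ-MLPKO mice, labelled MLPKO-cRADKO in the deposited data, carried in addition the MYH6-MerCreMer recombinase, which the cardiomyocyte promoter of MYH6 drives and which deletes RAD upon tamoxifen. The MLPKO group had no recombinase, so the loss of RAD and the presence of an active recombinase cannot be told apart, and no mouse with intact MLP was part of the comparison. The comparison asks how transcripts of glucose use differ once RAD is deleted from cardiomyocytes after dilated cardiomyopathy has begun.

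Glucose enters the cardiomyocyte through GLUT transporters and is phosphorylated by hexokinase. It then either passes down glycolysis to pyruvate and lactate or is stored as glycogen, from which phosphorylase releases it again. The adult heart draws most of its energy from fatty acids and also takes up lactate. Its muscle forms of several transporters and enzymes (GLUT4, Pgam2, Eno3, Pygm) replace, in part, widely expressed or fetal forms (GLUT1, Pgam1, Eno1, Pygb). A greater reliance on glucose with more of the fetal forms is a known feature of the failing heart.

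Each mouse had between 33457406 and 49965101 counted reads (median 43738141), and no difference in the totals was detected between the groups (exact permutation p = 0.587, two-sided, 5 mice in each group). The members held 1.34% to 1.55% of all counts in MLPKO and 1.3% to 1.52% in cRADΔ/Δ-MLPKO. Whole-gene counts of Rrad overlapped between the groups, at 5774 to 11644 normalized counts in MLPKO and 5562 to 8361 in cRADΔ/Δ-MLPKO (log2 fold change −0.38, edgeR adjusted p = 0.29), so the genotype of each mouse rests on its label. Csrp3 was still counted in every mouse, at 41726 to 134804 in MLPKO and 28551 to 48662 in cRADΔ/Δ-MLPKO (log2 fold change −1.08, edgeR adjusted p = 0.0666), and no sequence was at hand to tell a mutant transcript from an intact one. MLPKO mouse 2 stood apart, at a distance of 62.3 from the mean of its group on the log2 CPM scale over all genes tested, against 32.4 to 49.6 for the other 9 mice. Cardiomyocyte markers were high in every mouse, as the tissue label says, and the 7 fast skeletal muscle markers with counts summed to at most 2.99 CPM, with Myh4 at 0 in every mouse.

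Expressed as CPM, the count scaled to library size, per kilobase of the canonical transcript, the means of the members over the 10 mice ran from 1733 (Gapdh) to 0.0343 (Aldoc). Gapdh was highest, with 1455 to 2168 CPM per kilobase over the 10 mice, followed by Aldoa with 1210 to 1421, and these ranges did not overlap. Ldhb followed with 613 to 838, and the ranges of Eno3 (502 to 630) and Pgam2 (458 to 608) overlapped each other. Pygm, Pkm, Tpi1 and Ldha formed a close group with means over the 10 mice of 405, 391, 371 and 360 CPM per kilobase. The order depends on the length used, since Pgam2 ranked 1 and Gapdh ranked 3 when levels were divided by the summed length of all annotated exons. Of the glucose transporters, Slc2a4 (GLUT4) had a mean of 131 CPM per kilobase, against 2.59 for Slc2a1 (GLUT1) and 0.443 for Slc2a3 (GLUT3). At the low end, Aldoc, the brain form of aldolase, had 0 to 8 raw counts per mouse and was the only member under the filter on low counts (over 10 counts in 6 or more of the 10 mice), which left 30 members among 13452 genes tested.

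**Figure D1:**
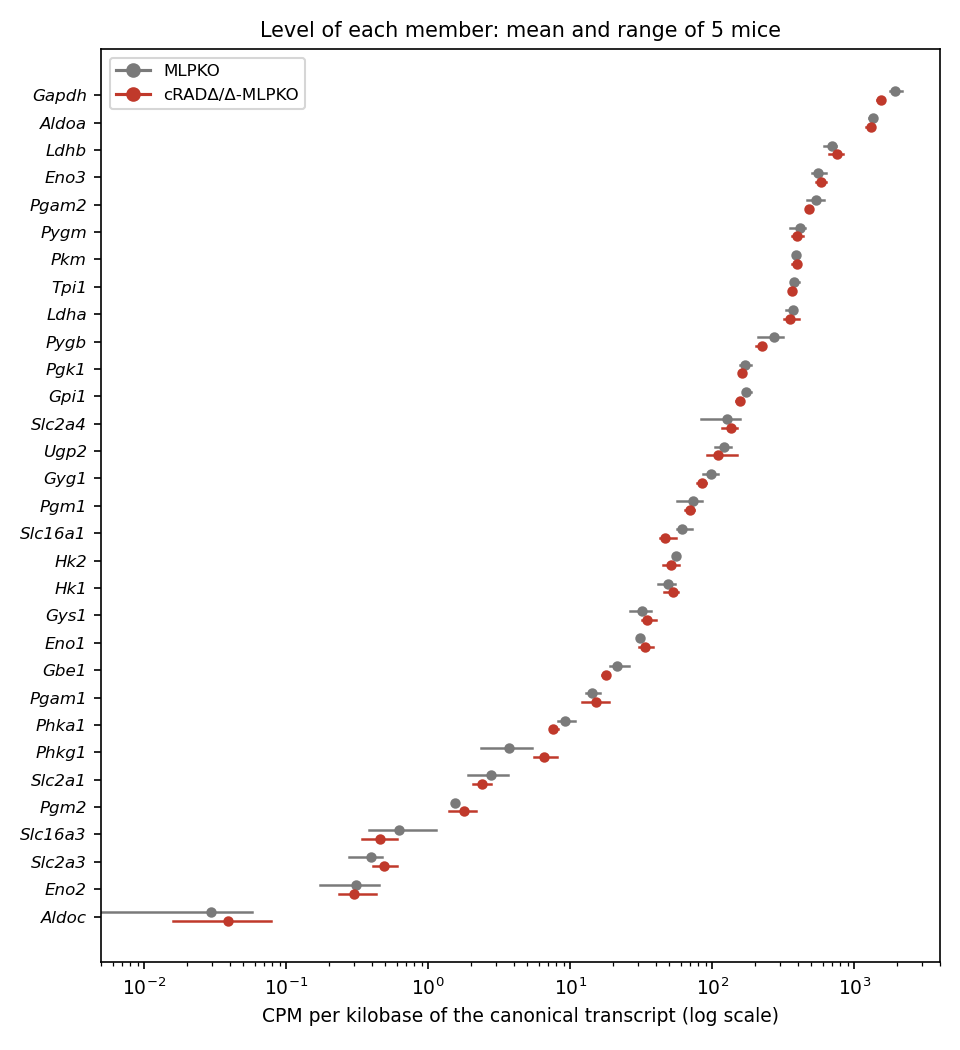
Level of the 31 members in CPM per kilobase of the canonical transcript (log axis), with points for the mean and lines for the range of 5 mice in each group. Gapdh (mean of 10 mice 1733) and Aldoa (1333) are highest, and Aldoc (0.0343) is lowest, its line cut at the left edge where a mouse had no count.

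Of the 30 members tested, 2 were lower in cRADΔ/Δ-MLPKO at an edgeR adjusted p under 0.05 (Gapdh and Slc16a1) and 1 was higher (Phkg1), that is 10% of the members. Over all genes tested, 1.8% were called lower and 0.944% higher, 2.74% in all. Only Phkg1 passed when the log2 fold change also had to reach 0.5 in either direction, against 1.25% of all genes. DESeq2 called 6 of the 30 members (20%, against 9.65% of all genes) and placed Gpi1, Gyg1 and Pygb beside those 3 genes, all of them lower. At an unadjusted edgeR p under 0.05 there were 9 members (30%, against 21.6%). The values of 5 members (16.7%, against 6.62% of all genes) did not overlap between the groups, with Gapdh, Slc16a1, Gpi1 and Gbe1 lower and Phkg1 higher in every cRADΔ/Δ-MLPKO mouse. Because the list was chosen with earlier results of these data known, these shares describe it and do not test it.

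The fitted log2 fold change was negative for 19 members and positive for 11, against 6438 and 7014 of all genes tested, with a median of −0.059 beside 0.011 over all genes. It was smaller than 0.2 in size for 19 members (63.3%, against 65.3% of all genes). For 22 members the 95% interval lay wholly within 0.5 of 0 in either direction (73.3%, against 61.6%). In bulk tissue a lower value can come from fewer cells of a type or from less RNA per cell, and these cannot be told apart. The 8 cardiomyocyte markers summed to 70476 to 83014 CPM in MLPKO and 55355 to 67738 in cRADΔ/Δ-MLPKO, without overlap, and 1 of the 8 (Tnnt2) was called lower. Tnni3 went the other way without passing (log2 fold change 0.13, edgeR adjusted p = 0.421). Myh6 held the most counts of the 8, at 930220 to 1775257 raw counts per mouse (log2 fold change −0.29, edgeR adjusted p = 0.104). The 7 endothelial markers summed to 711 to 828 CPM in MLPKO and 833 to 967 in cRADΔ/Δ-MLPKO, also without overlap, with a smallest edgeR adjusted p of 0.0728 among them. Of these, Vwf went the other way (log2 fold change −0.13, edgeR adjusted p = 0.787). Summed levels of the 7 macrophage markers overlapped (119 to 172 and 147 to 266 CPM), with log2 fold changes of 0.44 to 0.88 that did not pass, as did those of the 7 fibroblast markers (1281 to 1866 and 1075 to 1918 CPM). Of the smooth muscle markers, which summed to 73.6 to 208 and 124 to 273 CPM, Acta2 rose (log2 fold change 1.24, edgeR adjusted p = 0.046). Cnn1 went the other way without passing (log2 fold change −2.17, edgeR adjusted p = 0.102), and Myh11 had a log2 fold change of 0.01. Of the neuron markers, at 7.25 to 14.3 and 4.62 to 8.5 CPM, Uchl1 fell (log2 fold change −0.96, edgeR adjusted p = 0.0475), and Tubb3 had a log2 fold change of −0.08. The part of these shifts in the lower values of members was not tested.

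**Figure D2:**
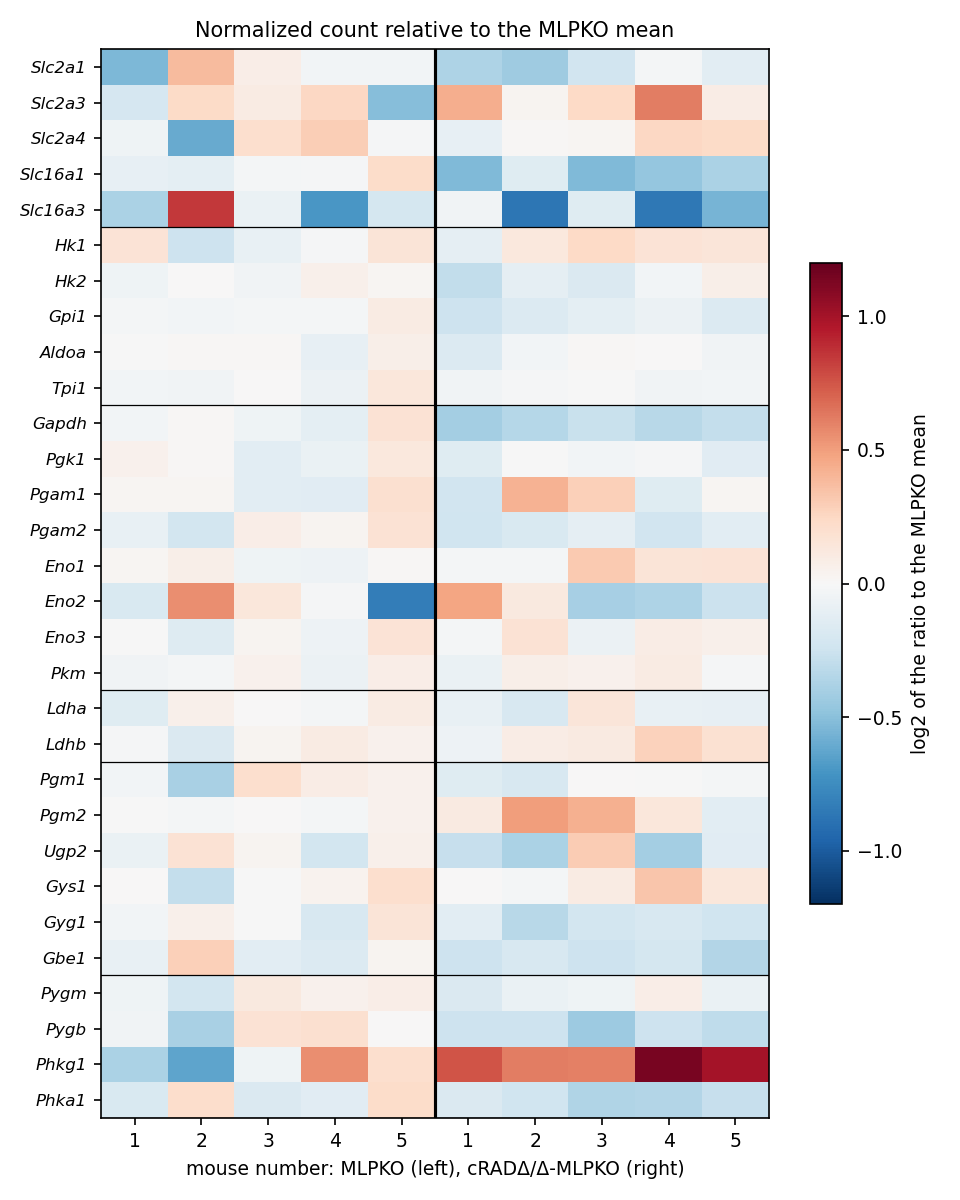
Normalized count of the 30 members tested in each mouse as the log2 ratio to the MLPKO mean (blue lower, red higher), with MLPKO mice on the left, cRADΔ/Δ-MLPKO mice on the right and lines between the roles. Gapdh and Slc16a1 are blue and Phkg1 red in all 5 cRADΔ/Δ-MLPKO mice, and MLPKO mouse 2 differs from the rest of its group at Slc2a4, Slc16a3 and Pygb.

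**Figure D3:**
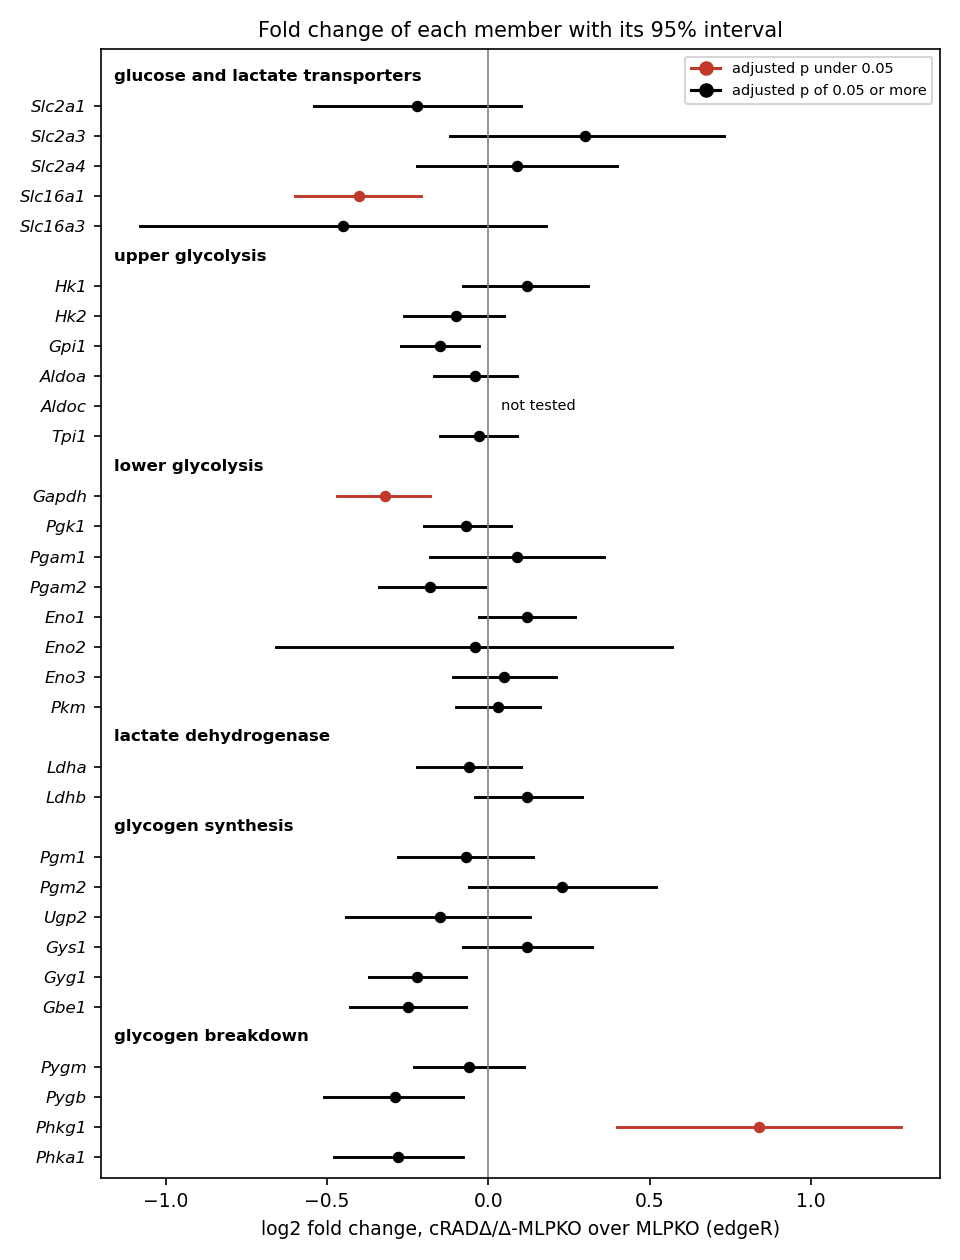
Log2 fold change of each member (cRADΔ/Δ-MLPKO over MLPKO, edgeR) with its 95% interval, ordered by role, red where the adjusted p was under 0.05. The intervals of Gapdh, Slc16a1 and Phkg1 exclude 0 and are marked red. Those of Gpi1, Pgam2, Gyg1, Gbe1, Pygb and Phka1 also exclude 0, all on the lower side, without passing after adjustment. The intervals of Slc16a3 and Eno2 are the widest, and Aldoc was not tested.

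The promoters of 3 members are shown because these passed by edgeR at an adjusted p under 0.05. Each promoter runs from 250 bases before to 50 after the RefSeq transcription start (RefSeq table on GRCm38.p6, places found on GRCm39 by exact match). Capitals mark ACGTG on either strand. ACGTG is a form of the core letters (ACGTG or GCGTG) of the element bound by the hypoxia-inducible factor HIF-1, a known regulator of glycolytic genes. GCGTG was neither marked nor counted.
Gapdh: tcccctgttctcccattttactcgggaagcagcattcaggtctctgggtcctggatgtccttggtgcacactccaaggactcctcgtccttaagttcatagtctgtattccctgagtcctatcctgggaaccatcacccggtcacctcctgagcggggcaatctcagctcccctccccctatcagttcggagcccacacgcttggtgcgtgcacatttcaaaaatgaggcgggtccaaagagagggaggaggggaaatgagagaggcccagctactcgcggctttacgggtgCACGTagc
Slc16a1: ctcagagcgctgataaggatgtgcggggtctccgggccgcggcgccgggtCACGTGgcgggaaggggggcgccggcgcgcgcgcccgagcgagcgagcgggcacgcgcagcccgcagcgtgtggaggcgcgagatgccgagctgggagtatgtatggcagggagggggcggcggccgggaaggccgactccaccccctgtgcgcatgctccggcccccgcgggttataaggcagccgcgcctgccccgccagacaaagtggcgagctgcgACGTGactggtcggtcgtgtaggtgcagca
Phkg1: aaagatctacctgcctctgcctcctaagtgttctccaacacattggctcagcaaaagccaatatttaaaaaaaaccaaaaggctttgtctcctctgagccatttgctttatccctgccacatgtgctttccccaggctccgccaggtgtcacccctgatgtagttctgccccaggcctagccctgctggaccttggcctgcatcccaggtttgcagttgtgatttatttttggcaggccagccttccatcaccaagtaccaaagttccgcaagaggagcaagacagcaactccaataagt
The Gapdh promoter lies at chr6:125142687-125142986 on the minus strand of GRCm39, inside the GENCODE span of the gene, and holds the letters once, read on the opposite strand, from base 43 of the transcript. That of Slc16a1 lies at chr3:104545730-104546029 on the plus strand and holds them at 2 places, as CACGTG 200 bases before the start and as ACGTG from base 21 of the transcript. The Phkg1 promoter lies at chr5:129907880-129908179 on the minus strand, also inside the GENCODE span of its gene, and holds none. Its GC content was 50%, against 56.7% for Gapdh and 73.7% for Slc16a1.

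RefSeq promoters were matched for 28 of the 31 members, all but Gyg1, Slc2a3 and Slc2a4. ACGTG was found on either strand in 17 of them (60.7%), in 29.1% of the 10257 genes tested that have a RefSeq promoter and in 21.8% of all 27025 genes with one. CACGTG, the E-box, which always contains ACGTG, was found in 2 members (7.14%), in 11.6% of the genes tested and in 8.09% of all. The GC box GGGCGG was found in 19 members (67.9%), close to the 68.1% of the genes tested and above the 38.2% of all genes with a promoter. TATAAA was found in 3 members (10.7%), in 9.13% of the genes tested and in 15.7% of all. These shares describe letters in a window, and no binding was measured.

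Among the transporters, the lactate carrier MCT1 was lower in cRADΔ/Δ-MLPKO and none of the glucose carriers passed the test. The 1 call is 20% of the 5 transporters, against 2.74% of all genes. Slc16a1 (ENSMUSG00000032902, chromosome 3, 104545811 to 104565780) encodes MCT1, which moves lactate, pyruvate and ketone bodies together with protons across the cell membrane. Its normalized counts were 10982, 10790, 11570, 11610 and 13658 in MLPKO and 8122, 10614, 8136, 8522 and 9009 in cRADΔ/Δ-MLPKO. Every cRADΔ/Δ-MLPKO mouse lay below every MLPKO mouse, the closest being the 10614 of cRADΔ/Δ-MLPKO mouse 2 and the 10790 of MLPKO mouse 2. The mean fell from 11722 ± 1140 to 8881 ± 1035 (SD, n = 5 per group), which is 75.8% of MLPKO (log2 fold change −0.40, standard error 0.09, 95% interval −0.60 to −0.21, edgeR adjusted p = 0.0395). The call was lost without MLPKO mouse 1, 3 or 5 and without cRADΔ/Δ-MLPKO mouse 1, 3, 4 or 5, with edgeR adjusted p between 0.0638 and 0.0974 and a log2 fold change between −0.42 and −0.34.

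Slc16a3 encodes MCT4, the carrier suited to lactate export from glycolytic cells. Its normalized counts were 93.6, 219, 115, 75 and 105 in MLPKO and 118, 66.6, 110, 67.2 and 82.3 in cRADΔ/Δ-MLPKO. The groups overlapped, and MLPKO mouse 2 held the highest value by far. The log2 fold change was −0.45 (standard error 0.29, edgeR adjusted p = 0.392), and −0.14 without MLPKO mouse 2 (edgeR adjusted p = 0.761). Of its annotated exon bases, 40.1% are shared with Csnk1d on the opposite strand, which had 2157 to 3650 raw counts per mouse, so its low counts are uncertain where strand was not used in counting.

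The 3 glucose transporters overlapped between the groups. Slc2a4, the insulin-responsive GLUT4, had 13651 ± 3000 normalized counts in MLPKO and 14537 ± 1497 in cRADΔ/Δ-MLPKO (SD, n = 5 per group, log2 fold change 0.09, edgeR adjusted p = 0.767). Its lowest value was the 9006 of MLPKO mouse 2, and without that mouse the log2 fold change was −0.03. Slc2a1, the basal and fetal GLUT1, had 513 ± 113 and 439 ± 51 (log2 fold change −0.22, 95% interval −0.54 to 0.10, and −0.11 without MLPKO mouse 2). MLPKO mouse 2 and cRADΔ/Δ-MLPKO mouse 4 held the highest Slc2a1 values of their groups (669 and 505). The 5 erythroid (red blood cell) markers summed to 288 to 2798 CPM in MLPKO, highest in mouse 2 with 796 next, and to 409 to 1978 in cRADΔ/Δ-MLPKO. The part of blood RNA in the Slc2a1 values was not tested. Slc2a3, the neuronal form GLUT3, had few counts, at 45.6 to 77.2 in MLPKO and 66.6 to 99.4 in cRADΔ/Δ-MLPKO, and a log2 fold change of 0.30 with an interval of −0.12 to 0.73.

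None of the 5 members of upper glycolysis that were tested passed by edgeR, and all 5 had intervals within 0.5 of 0. For 1 of them (Gpi1) the unadjusted edgeR p was under 0.05 (20%, against 21.6% of all genes). Hk1 and Hk2, the hexokinases that trap glucose as glucose 6-phosphate, had log2 fold changes of 0.12 and −0.10. Gpi1, which converts glucose 6-phosphate to fructose 6-phosphate, had 20503, 20410, 20462, 20452 and 22268 normalized counts in MLPKO and 17517, 18616, 19155, 19802 and 18635 in cRADΔ/Δ-MLPKO. These values did not overlap, and the values of 4 of the 5 MLPKO mice lay close together. The mean was 20819 ± 811 in MLPKO and 18745 ± 840 in cRADΔ/Δ-MLPKO (SD, n = 5 per group), 90% of MLPKO, a log2 fold change of −0.15 with a standard error of 0.05. Gpi1 did not pass by edgeR (adjusted p = 0.134) and passed by DESeq2 (adjusted p = 0.0334). Aldoa, which splits fructose 1,6-bisphosphate, and Tpi1, which interconverts the triose phosphates that result, had log2 fold changes of −0.04 (interval −0.17 to 0.09) and −0.03 (interval −0.15 to 0.09).

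In lower glycolysis, Gapdh fell and the other 7 members did not pass the test (12.5% called, against 2.74% of all genes). An unadjusted edgeR p under 0.05 was found for 2 of the 8 (25%, against 21.6%). Gapdh (ENSMUSG00000057666, chromosome 6, 125135289 to 125143518) oxidizes glyceraldehyde 3-phosphate and makes the NADH of glycolysis, and is widely used as a reference gene. Its normalized counts were 110436, 114432, 108853, 104415 and 127269 in MLPKO and 85383, 89294, 94216, 90071 and 92831 in cRADΔ/Δ-MLPKO. The groups did not overlap, the closest values being 104415 in MLPKO mouse 4 and 94216 in cRADΔ/Δ-MLPKO mouse 3. The mean fell from 113081 ± 8705 to 90359 ± 3427 (SD, n = 5 per group), which is 79.9% of MLPKO (log2 fold change −0.32, standard error 0.07, 95% interval −0.47 to −0.18, edgeR adjusted p = 0.0316, DESeq2 adjusted p = 4.6e-05).

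The direction of Gapdh was the same without each mouse in turn, with a log2 fold change between −0.35 and −0.28. The call was lost without MLPKO mouse 1 or 5 and without each of the 5 cRADΔ/Δ-MLPKO mice, with edgeR adjusted p between 0.0579 and 0.0774. It was held without MLPKO mouse 2, 3 or 4. Of the annotated exon bases of Gapdh, 41.6% are shared with Iffo1 on the opposite strand, which had only 281 to 455 raw counts per mouse.

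Pgk1, the first enzyme of glycolysis to yield ATP, had a log2 fold change of −0.07. Pgam2, the muscle form of phosphoglycerate mutase, had 16628 to 21869 normalized counts in MLPKO and 16473 to 18042 in cRADΔ/Δ-MLPKO, and a log2 fold change of −0.18 (edgeR adjusted p = 0.201). All of its exon bases lie within Dbnl on the opposite strand. Dbnl had 1012 to 1771 raw counts and a log2 fold change of −0.25 (edgeR adjusted p = 0.109). The part of Dbnl reads in the Pgam2 counts was not tested. Eno3, the muscle enolase, and Pkm, pyruvate kinase of muscle, were near 0 at log2 fold changes of 0.05 (interval −0.11 to 0.21) and 0.03 (interval −0.10 to 0.16). The widely expressed forms Pgam1 and Eno1 had 0.09 and 0.12, and a copy of Eno1, Eno1b, held 21.2% to 24.6% of the counts of Eno1 in each mouse, so reads may be split between them. Eno2, the neuronal enolase, had 20.1 to 52.4 normalized counts and a log2 fold change of −0.04 with an interval of −0.66 to 0.57.

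Lactate dehydrogenase interconverts pyruvate and lactate, and neither of its subunits passed by edgeR or DESeq2, or had an unadjusted edgeR p under 0.05. Ldhb, the heart subunit, had 43727 ± 3039 normalized counts in MLPKO and 47679 ± 4038 in cRADΔ/Δ-MLPKO (SD, n = 5 per group, log2 fold change 0.12, 95% interval −0.04 to 0.29). Ldha, the muscle subunit, had 24136 ± 1510 and 23154 ± 2089 (log2 fold change −0.06, interval −0.22 to 0.10).

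Of the 6 members that build glycogen, none passed by edgeR, and 4 had negative log2 fold changes, as did 6438 of the 13452 genes tested. An unadjusted edgeR p under 0.05 was found for 2 of them, Gyg1 and Gbe1 (33.3%, against 21.6% of all genes). Gbe1, which adds the branches of glycogen, had 2582, 3343, 2518, 2449 and 2811 normalized counts in MLPKO and 2306, 2404, 2313, 2366 and 2154 in cRADΔ/Δ-MLPKO. The groups did not overlap, the closest values being 2449 and 2404, and MLPKO mouse 2 was highest. Its log2 fold change was −0.25 (standard error 0.08, 95% interval −0.43 to −0.07, edgeR adjusted p = 0.112, DESeq2 adjusted p = 0.0591), and −0.17 without MLPKO mouse 2. Gyg1, glycogenin, the protein primer on which glycogen is begun, had 7265 to 9195 in MLPKO and 6566 to 7582 in cRADΔ/Δ-MLPKO, a log2 fold change of −0.22. Gyg1 did not pass by edgeR (adjusted p = 0.0925), passed by DESeq2 (adjusted p = 0.0285), and passed by edgeR without MLPKO mouse 4 (adjusted p = 0.0367).

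Gys1, the muscle glycogen synthase, had a log2 fold change of 0.12 (interval −0.08 to 0.32). Pgm1, which interconverts glucose 1-phosphate and glucose 6-phosphate, had −0.07, and its relative Pgm2 had 0.23 (interval −0.06 to 0.52) on 139 to 215 normalized counts. Ugp2, which makes UDP-glucose, the donor for glycogen synthase, had −0.15 (edgeR adjusted p = 0.538). Its values were 16167 to 21225 in MLPKO and 14222 to 23274 in cRADΔ/Δ-MLPKO, and the highest came from cRADΔ/Δ-MLPKO mouse 3. That mouse also held adipocyte transcripts, with 2232 raw counts of Cfd, 330 of Plin1 and 216 of Adipoq, against at most 26, 4 and 6 in the other 9 mice. The summed CPM of all 4 adipocyte markers, the last being Fabp4, was 269 to 325 in MLPKO and 316 to 472 in cRADΔ/Δ-MLPKO. Without that mouse the log2 fold change of Ugp2 was −0.29 (edgeR adjusted p = 0.128). The part of adipose RNA in the Ugp2 value was not tested.

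Of the 4 members that break glycogen down, Phkg1 rose and 3 were lower without passing by edgeR. The 1 call is 25% of them, against 2.74% of all genes. An unadjusted edgeR p under 0.05 was found for 3 (75%, against 21.6%), and DESeq2 called 2 (50%, against 9.65%). Phkg1 (ENSMUSG00000025537, chromosome 5, 129891125 to 129927390) encodes the muscle form of the catalytic subunit of phosphorylase kinase, which activates glycogen phosphorylase and is itself switched on by calcium and by protein kinase A. Its normalized counts were 287, 241, 362, 550 and 430 in MLPKO and 631, 572, 569, 826 and 747 in cRADΔ/Δ-MLPKO. Every cRADΔ/Δ-MLPKO mouse lay above every MLPKO mouse, the closest being 569 and 550. The mean rose from 374 ± 122 to 669 ± 114 (SD, n = 5 per group), to 179% of MLPKO (log2 fold change 0.84, standard error 0.20, 95% interval 0.40 to 1.28, edgeR adjusted p = 0.0496).

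The Phkg1 call lies at the threshold. Without MLPKO mouse 4 the edgeR adjusted p was 0.0145, and without any one of the other 9 mice it was between 0.057 and 0.117, with a log2 fold change between 0.72 and 0.90. Of the annotated exon bases of Phkg1, 29.8% are shared with Sumf2 on the opposite strand. Sumf2 had 215 to 350 raw counts per mouse, beside 184 to 897 for Phkg1, and a log2 fold change of −0.25 (edgeR adjusted p = 0.262). The Phkg1 counts are thus also uncertain where strand was not used in counting. The part of Sumf2 reads in them was not tested.

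Phka1, the muscle regulatory subunit of the same kinase, had 2971 to 3931 normalized counts in MLPKO and 2623 to 2980 in cRADΔ/Δ-MLPKO. Its log2 fold change was −0.28 (standard error 0.09, edgeR adjusted p = 0.111), opposite in sign to that of Phkg1, and the difference between them was not tested. The other subunits of the kinase, outside the module, did not pass by edgeR, with log2 fold changes of 0.05 for Phka2, −0.13 for Phkb and −0.20 for Phkg2, the other catalytic subunit. Pygm, the muscle glycogen phosphorylase, had 42746 to 54290 in MLPKO and 44315 to 52721 in cRADΔ/Δ-MLPKO (log2 fold change −0.06, interval −0.23 to 0.11). Pygb, the brain and fetal phosphorylase, had 43207, 33988, 50128, 50798 and 44656 in MLPKO and 37429, 37559, 33020, 37429 and 36155 in cRADΔ/Δ-MLPKO. MLPKO mouse 2 was the only one of its group within the range of the other. The log2 fold change of Pygb was −0.29 (edgeR adjusted p = 0.118, DESeq2 adjusted p = 0.0498), and it passed by edgeR without MLPKO mouse 2 (adjusted p = 0.0251).

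**Figure D4:**
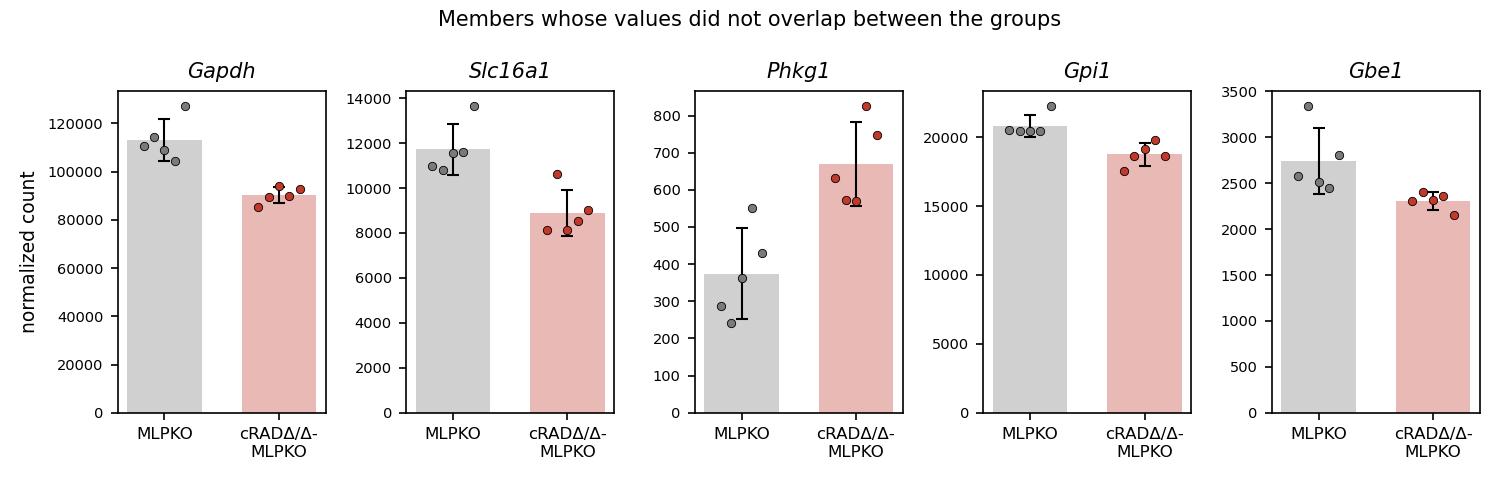
Normalized counts of the 5 members whose values did not overlap between the groups, with a point per mouse, bars for the mean and error bars for the SD of 5 mice (axes start at 0). Gapdh, Slc16a1, Gpi1 and Gbe1 are lower and Phkg1 is higher in cRADΔ/Δ-MLPKO, by edgeR significantly for Gapdh, Slc16a1 and Phkg1.

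The balance of isoforms was compared within each mouse as the log2 ratio of CPM of 8 pairs of related members, in most of them the widely expressed or fetal form over the muscle or heart form. No pair passed a two-sided exact permutation test after adjustment over the 8 pairs, and all 8 overlapped between the groups. The smallest p was that of Pygb to Pygm, with ratios of −0.15, −0.33, −0.12, −0.02 and −0.24 in MLPKO and −0.24, −0.33, −0.54, −0.49 and −0.38 in cRADΔ/Δ-MLPKO. The mean log2 ratio was −0.17 ± 0.12 in MLPKO and −0.40 ± 0.12 in cRADΔ/Δ-MLPKO, a difference of −0.23 (SD, n = 5 per group, exact permutation p = 0.0238, adjusted p = 0.19). The smallest p that 5 mice against 5 allow is 0.00794, or 0.0635 after adjustment where 1 pair alone reaches it, so no pair could have passed on its own.

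Ldha to Ldhb had a mean log2 ratio of −0.86 in MLPKO and −1.04 in cRADΔ/Δ-MLPKO (exact permutation p = 0.0952, adjusted p = 0.238). Hk1 to Hk2 had −1.05 and −0.82 (exact permutation p = 0.0635, adjusted p = 0.238), and Pgam1 to Pgam2 had −4.20 and −3.95 (exact permutation p = 0.119, adjusted p = 0.238). Slc2a1 to Slc2a4 had −4.73 ± 0.58 and −5.05 ± 0.08 (SD, n = 5 per group, exact permutation p = 0.222). MLPKO mouse 2 had −3.75, where the other 4 lay between −5.22 and −4.75, and without it the difference between the groups went from −0.32 to −0.07. Eno1 to Eno3 and Slc16a3 to Slc16a1 differed by 0.07 and 0.02, and Aldoc to Aldoa rested on at most 8 counts of Aldoc. Per kilobase, Pygb stood at 66.2% of Pygm in MLPKO and 56.6% in cRADΔ/Δ-MLPKO.

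**Figure D5:**
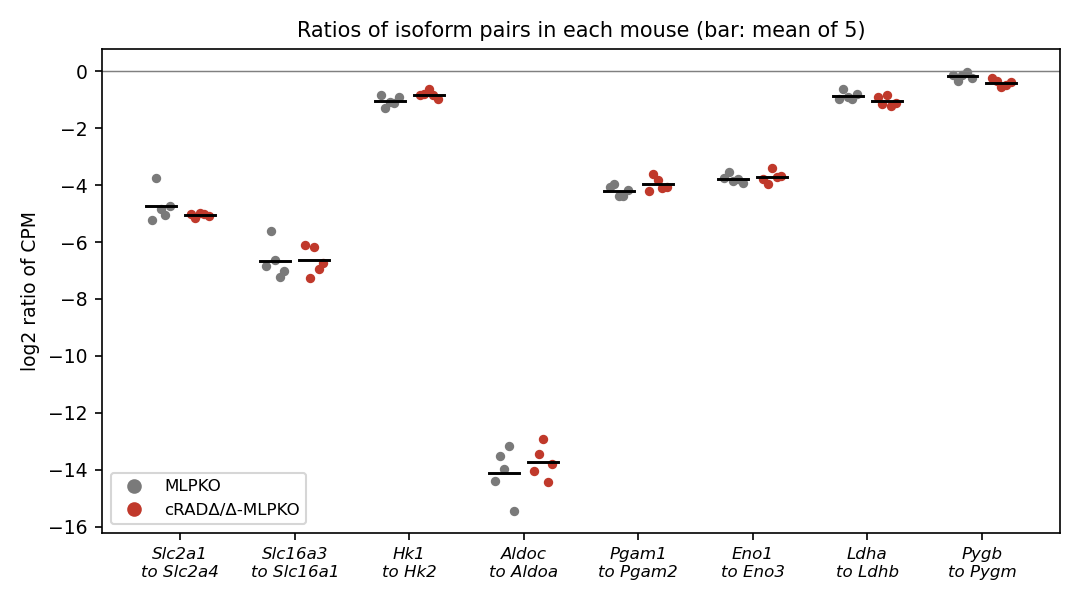
Log2 ratio of CPM for 8 isoform pairs in each mouse, with a point per mouse and a bar for the mean of 5. The groups overlap in all 8 pairs, and MLPKO mouse 2 is the highest of its group for Slc2a1 to Slc2a4 and for Slc16a3 to Slc16a1.

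Of 96 other genes of glucose use outside the module, 89 were tested. By edgeR 4 were called (4.49%, against 2.74% of all genes), 2 lower and 2 higher, and DESeq2 called 11 (12.4%, against 9.65%). The median log2 fold change of the 89 was 0.001. This list too was chosen with earlier results of these data known, so its shares are descriptive. Pfkp, the platelet form of phosphofructokinase, the committed step of glycolysis, fell from 5174 ± 772 to 2425 ± 266 normalized counts (SD, n = 5 per group, log2 fold change −1.09, edgeR adjusted p = 0.00188), a call held without each mouse in turn. The muscle form Pfkm was at a log2 fold change of −0.02 (edgeR adjusted p = 0.923). Prkab2, a regulatory subunit of the AMP-activated kinase that senses low energy, fell from 5426 ± 1604 to 2610 ± 220 (log2 fold change −1.06, edgeR adjusted p = 0.0161), and was not called without MLPKO mouse 5 (adjusted p = 0.0505).

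Slc16a7, which encodes MCT2, a monocarboxylate carrier of higher affinity than MCT1, rose from 119 ± 48.7 to 304 ± 93.4 (SD, n = 5 per group, log2 fold change 1.36, edgeR adjusted p = 0.0307). It was not called without MLPKO mouse 1, 3 or 5 or cRADΔ/Δ-MLPKO mouse 2, 3, 4 or 5, with edgeR adjusted p between 0.0547 and 0.0786. Of the 3 monocarboxylate carriers, Slc16a1 thus fell, Slc16a7 rose and Slc16a3 did not pass. Gfpt2, one of the entry enzymes of the hexosamine branch, rose from 337 ± 39.6 to 573 ± 116 (log2 fold change 0.77, edgeR adjusted p = 0.0226), and was not called without MLPKO mouse 1 or 5 or cRADΔ/Δ-MLPKO mouse 5 (adjusted p between 0.051 and 0.0667). The other entry enzyme, Gfpt1, had 1625 ± 208 and 1334 ± 54.3, a log2 fold change of −0.29 that did not pass by edgeR (adjusted p = 0.0813) and passed by DESeq2 (adjusted p = 0.0302). None of the 6 genes of pyruvate entry, the 7 of the pentose phosphate branch or the 19 other glycogen genes tested passed by edgeR. An unadjusted edgeR p under 0.05 was found for 3, 2 and 1 of them (50%, 28.6% and 5.26%, against 21.6% of all genes). DESeq2 called 0, 0 and 1 of them (0%, 0% and 5.26%, against 9.65%).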

How the data were processed

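The authors aligned polyadenylated RNA reads (RIN above 9) with STAR to GRCm39, assigned them to genes with featureCounts and deposited the unnormalized counts, one column per mouse. The sources used here give no setting for strand, read pairs or reads shared between genes, and from 73.7% to 80.3% of counts from 1 to 20 were even numbers. The 60676 genes of the table were named and placed with GENCODE M39 on GRCm39, and 3491 genes without a value were left out. The members and lists were chosen with earlier results of these data known. Following the methods of the study, a gene had to exceed 10 counts in 6 or more of the 10 mice, and predicted genes (Gm and Rik names) were dropped. Counts were normalized with TMM and tested in edgeR 4.0.16 (R 4.3.3) by its quasi-likelihood method without covariates, and p-values were adjusted by Benjamini-Hochberg over all 13452 genes tested. Normalized counts are CPM scaled to the mean library size. Members were named in full where the adjusted p was under 0.05, where the groups did not overlap, or where the fold change was among the 3 largest, and the others by range and fold change. Isoform ratios used log2 CPM (prior count 2) and exact permutation over the 252 splits of 10 mice. Alternatives were DESeq2 1.42.0 (the tool of the authors), limma-voom (limma 3.58.1), RLE and upper quartile size factors, other filters, robust dispersion, the mouse number as a block, a prior count of 0.5, and leaving out each mouse. The edgeR, DESeq2 and limma-voom fits were tested on simulated data.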

Additional observations from a re-analysis of the deposited data

Results flagged for a closer look

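The normalized count of Gpi1 in MLPKO mouse 5 was 22268, away from the 20410 to 20503 of the other 4 MLPKO mice, and on the log2 CPM scale it was the only value among 60 groups of 5 (30 members in both genotypes) to lie outside the rest by Dixon's test, which flags about 1 group in 20 by chance. Without that mouse the log2 fold change of Gpi1 was −0.12 (edgeR adjusted p = 0.251). On the linear scale of normalized counts, a scale tried only after seeing the data, the test also picked out Slc16a3 in MLPKO mouse 2 (219, the others 75 to 115), Slc16a1 in MLPKO mouse 5 (13658, the others 10790 to 11610) and Ldha in cRADΔ/Δ-MLPKO mouse 3 (26707, the others 21145 to 22672).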

How the results depend on the processing

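Of the members, 6 were called by DESeq2 and 1 (Phkg1) with the mouse number as a replicate block, against 3 without it, and from 0 to 4 when each mouse was left out, the lowest without MLPKO mouse 1 or 5 or cRADΔ/Δ-MLPKO mouse 1, 3, 4 or 5 and the highest without MLPKO mouse 4. Over all genes 369 were called, 1298 by DESeq2, 281 with the block and between 47 and 828 when a mouse was left out. The mouse numbers belong to different animals, and the deviations of mice with the same number correlated between −0.04 and 0.15, with 2 of 5 MLPKO mice correlating best with their own number. With the block, the edgeR adjusted p was 0.0632 for Gapdh, 0.0578 for Slc16a1 and 0.0169 for Phkg1. Phkg1 was also not called with RLE size factors, filterByExpr, Gm and Rik genes kept or robust dispersion (edgeR adjusted p between 0.05 and 0.0573). Upper quartile size factors gave 207 lower and 175 higher genes, against 242 and 127. Of the other pathway genes, 11 were called by DESeq2, and from 1 to 9 when a mouse was left out, against 4. The median log2 fold change of the members was negative in all 19 alternatives, between −0.075 and −0.027. When a mouse was left out, log2 fold changes near 0 changed sign for Slc2a4 (−0.03 to 0.18), Tpi1 (−0.05 to 0.01) and Eno2 (−0.20 to 0.13), as did the group differences in the log2 ratios of Slc16a3 to Slc16a1 (−0.13 to 0.28) and Eno1 to Eno3 (−0.01 to 0.13). The cause of these changes was not tested. The members with the fewest counts (Slc2a3, Slc16a3, Eno2) had intervals too wide to show a small difference.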
